A study of Paraphaeosphaeria sporulosa with 23 samples.

Results

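The question was how the response of the transcripts of Paraphaeosphaeria sporulosa to selenite at day 6 differed from the response at day 1. P. sporulosa is a filamentous fungus, and the strain was AP3s5-JAC2a. For each gene the change at day 1 (selenite minus control) was subtracted from the change at day 6, so a positive difference means a higher selenite change at day 6. All 15164 genes of the deposited CPM table belong to the description. Of these, 13676 had enough reads to be tested. The contrast used 20 of the 23 libraries. Day 1 had 6 controls and 5 with selenite, and day 6 had 5 controls and 4 with selenite. The remaining 3, controls at day 0, entered the choice of tested genes, the scaling and the estimate of spread, and are given for reference. Still flasks were grown in the dark for 18 days from mycelium of a 14-day preculture, and sodium selenite (0.1 mM) was then added to the treated flasks only. Controls were kept without selenite, so they aged by the same number of days. All groups are of 1 strain, and the labels leave unsaid if each replicate was its own flask. P-values therefore measure only library-to-library spread, which may be technical.

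Selenite is an oxyanion of selenium that enters cells partly through carriers of other anions and reacts with thiols such as glutathione. Reduction by thiols and reductases turns it into elemental selenium, and side reactions yield reactive oxygen species. Many fungi also build selenium into analogues of sulfur amino acids and release volatile methylated forms. The tables used here pair no gene with a product name, so genes are described by locus tag, position and level, with no function.

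The 20 libraries of days 1 and 6 held 23282564 to 32681888 reads in genes. Levels are given as scaled CPM, the deposited CPM divided by a TMM factor, a trimmed-mean factor that corrects for a few genes taking a large share of reads. These factors separated the days: 0.775 to 0.909 in controls and 0.557 to 0.684 in selenite libraries at day 1, against 1.33 to 1.61 and 1.16 to 1.41 at day 6. Changes between days, and the difference itself, shift with the scaling, and these shifts are given beside the counts. Control day 6 replicates 1 and 3 stood apart, with a correlation of 0.981 with each other, of 0.939 to 0.962 with the other 3 controls of that day, and of 0.974 to 0.977 among those 3 (across genes). Control day 1 replicate 1 had the lowest mean correlation with its group, 0.948 against 0.964 to 0.972 for the other 5. In whole cultures, fewer cells of a kind and less RNA per cell cannot be told apart.

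The selenite change differed between the days for 5930 genes, 43.4% of those tested (limma, Benjamini-Hochberg adjusted p under 0.05). The difference was positive for 3098 genes (22.7%) and negative for 2832 (20.7%). Among called genes the median size was 1.67 on the log2 scale, with quartiles at 1.21 and 2.31. With TMM factors, the only scaling for which sizes were counted, large differences were more often negative. At 2-fold or more there were 2541 negative and 2528 positive differences. Of these, 1179 negative and 932 positive differences reached 4-fold, 147 and 46 reached 16-fold, and 51 and 11 reached 32-fold. Over all tested genes the median size of the selenite change was 0.92 log2 units at day 1 and 0.71 at day 6. The split depended on scaling, with 52.2% of called differences positive under TMM factors, 41.9% under DESeq2 size factors and 63.3% under library totals alone, whose median shifts were −0.23 and 0.23 log2 units. With only the 20 libraries of days 1 and 6, for which TMM factors were set anew, 45.3% were positive. Without control day 6 replicates 1 and 3 together, 5019 genes were called, and 4786 of them were among the 5930 with the same sign.

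**Figure D1:**
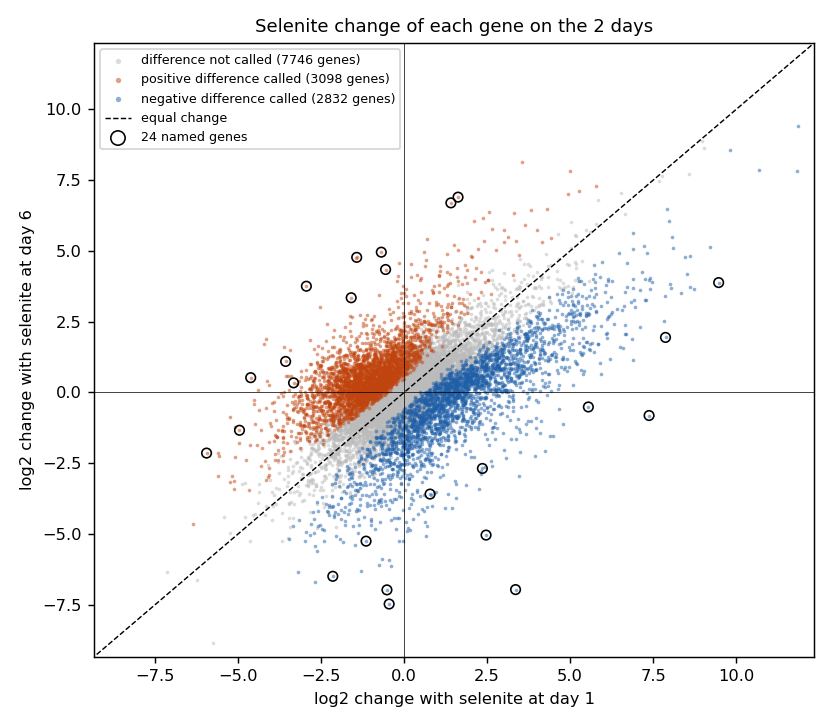
Each point is a tested gene, with its log2 change with selenite at day 1 on the x axis and at day 6 on the y axis; the dashed line marks equal change. The 3098 genes with a called positive difference lie above the line and the 2832 with a negative one below it, and the 24 named genes are circled.

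Genes with large changes at day 1, up or down, and genes with large falls at day 6 had smaller median changes on the other day, while genes with large rises at day 6 had a similar median at day 1. The 760 genes with a day 1 rise of 8-fold or more had a median log2 change of 3.98 then and 2.06 at day 6. Of these, 78.3% had a called negative difference and 2.37% a positive one. The 223 genes that fell as much at day 1 went from a median of −3.52 to −1.74. The 347 genes with such a rise at day 6 had a median of 3.74 at day 6 and 3.69 already at day 1, with 34.3% positive and 26.5% negative differences. For the 309 genes with a day 6 fall of that size the medians were −3.76 at day 6 and −1.66 at day 1, and 67.0% had a negative difference. These genes were binned by a change that enters the difference, so the shares describe its shape and test nothing.

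By the calls on each day (62.5% of tested genes at day 1, with 30.8% up and 31.7% down, and 48.6% at day 6, with 27.0% up and 21.5% down), the 5930 genes fell into 12 patterns. A fall at day 1 with no call at day 6 was found in 1378 genes (median log2 change −1.42 at day 1 and 0.08 at day 6). The mirror pattern, a rise at day 1 with no call at day 6, held 1041 genes (1.75 and 0.07). A rise on both days that was smaller at day 6 was found in 691 genes (3.63 and 1.5), and a larger one in 165 (1.29 and 2.82). The order of these counts depended on the scaling. With DESeq2 size factors 1113 genes fell and 1292 rose at day 1 with no call at day 6, and the DESeq2 Wald test gave 1041 and 1138. Library totals alone gave 1735 and 648, and 390 genes with a smaller rise at day 6. Falls on both days were smaller at day 6 in 310 genes and larger in 203. DESeq2 size factors gave 222 and 223, and library totals alone 482 and 210. With no call at day 1, 622 genes rose and 581 fell at day 6. For this pair DESeq2 size factors gave 510 and 697, and library totals alone 605 and 608. Opposite calls were found for 818 genes, 548 falling then rising and 270 rising then falling. These numbers were 415 and 359 with DESeq2 size factors and 567 and 175 with library totals alone. A further 121 genes were called on neither day, 75 with a positive and 46 with a negative difference (53 and 70 with DESeq2 size factors). Without control day 6 replicates 1 and 3 the opposite calls numbered 463 (305 and 158).

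The same difference can be read by culture, as the change of selenite cultures from day 1 to day 6 minus that of controls. Taken alone, selenite cultures changed between days in 6456 genes (47.2%; 25% higher and 22.2% lower at day 6) and controls in 5973 (43.7%; 21.6% higher and 22.1% lower). Without control day 6 replicates 1 and 3, 6569 and 3992 genes were called. These comparisons share their libraries with the difference, so the counts divide it and do not support it. Among the 3098 positive differences, selenite cultures were called higher at day 6 with controls not called in 1193 genes. In 903 the controls were called lower with selenite cultures not called, and in 770 the selenite cultures were higher and the controls lower. Among the 2832 negative differences, the corresponding numbers were 1201 (selenite lower, controls not called), 849 (controls higher, selenite not called) and 489 (selenite lower and controls higher). The larger of the 2 changes was that of the selenite cultures in 59.1% of the 5930 genes. This share was counted with TMM factors only. Controls but not selenite cultures were called between days in 1752 genes with a called difference. Without control day 6 replicates 1 and 3, the 903 and 849 genes of this kind became 582 and 499.

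**Figure D2:**
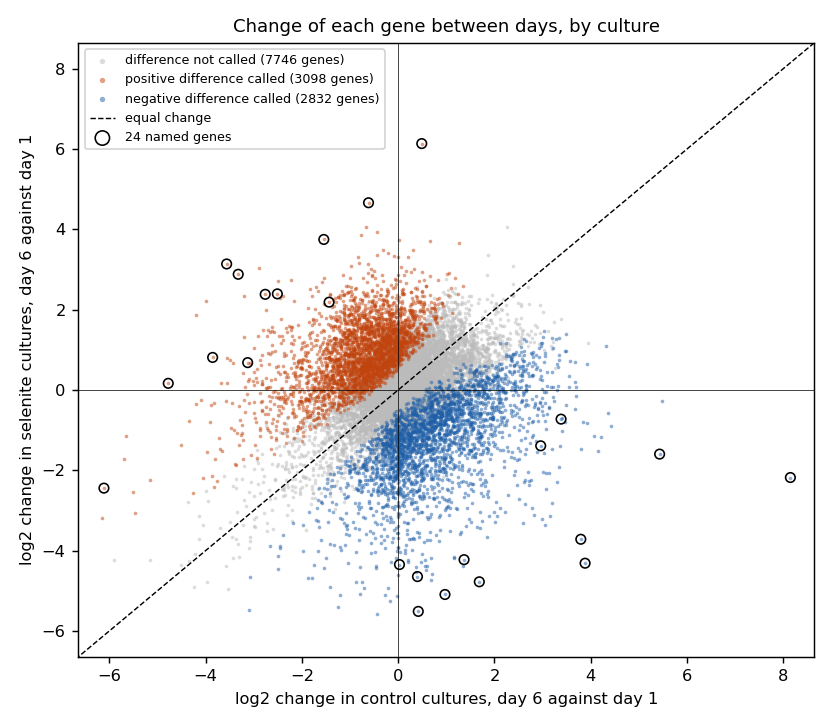
Each point is a tested gene, with its log2 change from day 1 to day 6 in control cultures on the x axis and in selenite cultures on the y axis. Called positive differences (3098) lie above the dashed line of equal change and negative ones (2832) below it, and they spread along both axes.

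The division by culture varied with the pattern. Of the 691 genes that rose on both days but less at day 6, selenite cultures alone were called between days in 498 and controls alone in 45. Of the 581 genes with no call at day 1 and a fall at day 6, controls alone were called in 349 and selenite cultures alone in 102. For the 548 genes that fell and then rose, 317 had selenite cultures higher and controls lower at day 6. Library totals alone in place of TMM factors moved the between-day changes of all genes by a median of 0.99 log2 units in selenite cultures and 0.78 in controls. Under that scaling 1938 positive differences had selenite called higher with controls not called, 238 had controls called lower with selenite not called, and 932 in place of 43 had both called higher, selenite more. Of the negative differences, 392 had selenite called lower with controls not called, and 1121 had controls called higher with selenite not called.

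**Figure D3:**
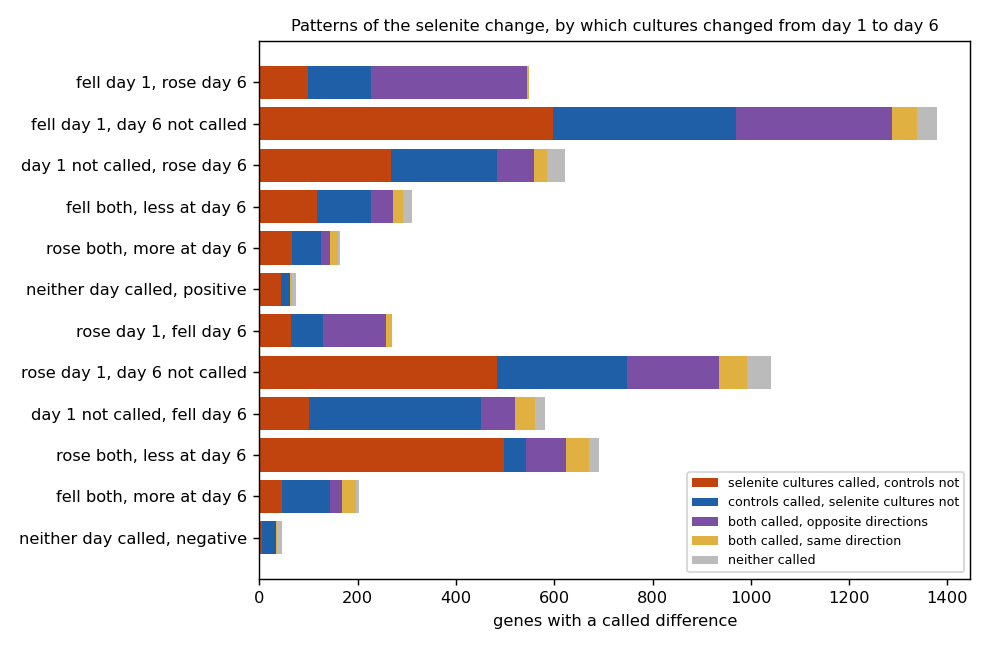
Bars give the number of genes with a called difference in each of 12 patterns of the selenite change at day 1 and day 6, divided by which cultures were called between day 1 and day 6. With the TMM factors used here the bar of a fall at day 1 with no call at day 6 is the longest, at 1378 genes (1113 against 1292 for the mirror pattern with DESeq2 size factors), and that of a rise on both days but less at day 6 is mostly selenite cultures alone (498 of 691).

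The day 0 controls place these patterns against the start, though replicate 1 of that day differed from the other 2 for several genes below. For the 548 genes that fell and then rose, median log2 levels relative to day 0 were 0.19 in day 1 controls, −0.91 in day 1 selenite cultures, −0.78 in day 6 controls and 0.21 in day 6 selenite cultures. That day 1 selenite cultures and day 6 controls were the low groups follows largely from how these genes were selected. For the 270 genes that rose and then fell the medians were −0.66, 0.77, 0.71 and −0.63 in the same order. The 691 genes with a smaller rise at day 6 had medians of −0.07 and 0.04 in controls of days 1 and 6, and 3.53 and 1.69 with selenite. All comparisons with day 0 use the same 3 libraries.

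Of the genes that fell at day 1 and rose at day 6, the largest differences were those of CC84DRAFT_238584 and CC84DRAFT_1219326. CC84DRAFT_238584, a gene of 2 exons on the plus strand of scaffold NW_017253369.1 (1335909 to 1336733), had 247 to 707 scaled CPM in day 1 controls (median 578) and 67.0, 64.7, 105, 65.3 and 43.2 in day 1 selenite libraries. At day 6 its controls had 9.73, 91.6, 162, 77.6 and 12.7, and its selenite libraries 418, 785, 512 and 711. The groups did not overlap on either day, and they changed places. Its difference was 6.70 ± 0.97 (SE; limma adjusted p 5.88e-06). Day 0 controls had 173 in replicate 1 and 3462 and 3287 in the others. CC84DRAFT_1219326 (2 exons, NW_017253366.1, 1909985 to 1912323, plus strand) had a difference of 6.20 ± 0.78 (limma adjusted p 1.06e-06). Its day 1 groups overlapped, at 15.1 to 58.2 scaled CPM in controls and 5.48 to 23.2 with selenite, while day 6 controls (0.960 to 5.99) lay below day 6 selenite libraries (24.6, 100.1, 127 and 257). Its difference without control day 6 replicates 1 and 3 was 5.48.

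Genes that rose at day 1 and fell at day 6 were led by CC84DRAFT_1138657 and CC84DRAFT_8385. CC84DRAFT_1138657 (3 exons, NW_017253361.1, 2845729 to 2847183, minus strand) went in controls from a median of 1.51 scaled CPM at day 1 to 855, 337, 1118, 335 and 268 at day 6. Selenite libraries held 12.6 to 23.6 at day 1 and 7.76, 2.60, 3.27 and 1.97 at day 6. The difference of −10.33 ± 0.84 (limma adjusted p 3.19e-09) thus rests mainly on the rise in controls, 8.15 ± 0.56 log2 units, beside a fall of 2.18 ± 0.62 with selenite. CC84DRAFT_8385, which has 13 exons (minus strand of NW_017253360.1, 524898 to 527882), had 791, 1014, 493, 480 and 921 scaled CPM with selenite at day 1 and 105, 29.1, 75.2 and 34.7 at day 6. Controls rose from a median of 131 (27.6 to 1233) to 2183, 1303, 2233, 1548 and 1765. The highest of the day 1 controls, replicate 1, lay above all selenite libraries of that day, so those groups overlapped. The difference was −7.51 ± 0.91 (limma adjusted p 6.4e-07).

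The strongest loss of an early rise among genes still higher at day 6 was that of CC84DRAFT_1231262 and CC84DRAFT_1168083. CC84DRAFT_1231262 (2 exons, NW_017253372.1, 199532 to 200575, plus strand) had 328, 289.8, 500.4, 469 and 256 scaled CPM with selenite at day 1 and 18.5, 5.25, 8.98 and 3.08 at day 6. Controls stayed between 0.627 and 4.11 in all 11 libraries of both days, and their change between days did not pass (0.42 ± 0.43 log2 units, limma adjusted p 0.472). The selenite change went from 7.87 ± 0.43 at day 1 to 1.94 ± 0.48 at day 6, a difference of −5.93 ± 0.64 (limma adjusted p 1.42e-07). Selenite and control libraries overlapped at day 6, where the lowest selenite value was 3.08. CC84DRAFT_1168083, of 1 exon on NW_017253370.1 (284992 to 286601, plus strand), reached 2692, 2260.3, 2961, 3189.7 and 2837 scaled CPM with selenite at day 1. At day 6 the selenite libraries spread from 29.3 in replicate 2 to 449 in replicate 1, with 203 and 175 in the others. Controls had 2.26 to 6.44 at day 1 and 5.62 to 18.5 at day 6, below every selenite library of their day. Its selenite change went from 9.47 ± 0.44 to 3.88 ± 0.48, a difference of −5.59 ± 0.65 (limma adjusted p 3.54e-07).

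A larger rise at day 6 was led by 2 genes of 1 exon. CC84DRAFT_963993 on NW_017253367.1 (1964808 to 1965804, plus strand) had 31.6, 18.7, 15.5, 20.1 and 23.2 scaled CPM with selenite at day 1 and 285, 303, 196 and 424 at day 6. Its controls had a median of 7.03 at day 1 (4.27 to 16.9) and 1.64, 3.28, 2.03, 2.63 and 2.22 at day 6. The groups were well apart at day 6 and overlapped slightly at day 1. The selenite change was 1.41 ± 0.27 at day 1 and 6.70 ± 0.30 at day 6, and the difference 5.29 ± 0.40 (limma adjusted p 1.43e-09). CC84DRAFT_1167530 on NW_017253368.1 (1628522 to 1629310, plus strand) stayed between 0.124 and 3.33 scaled CPM in controls of both days. With selenite it had 2.32 to 10.0 at day 1 and 132, 237, 189 and 84.8 at day 6, a difference of 5.28 ± 0.63 (limma adjusted p 5.53e-07). Between days only its selenite cultures passed, by 4.66 ± 0.47 log2 units (limma adjusted p 2.39e-08), against −0.62 ± 0.43 in controls (adjusted p 0.258).

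**Figure D4:**
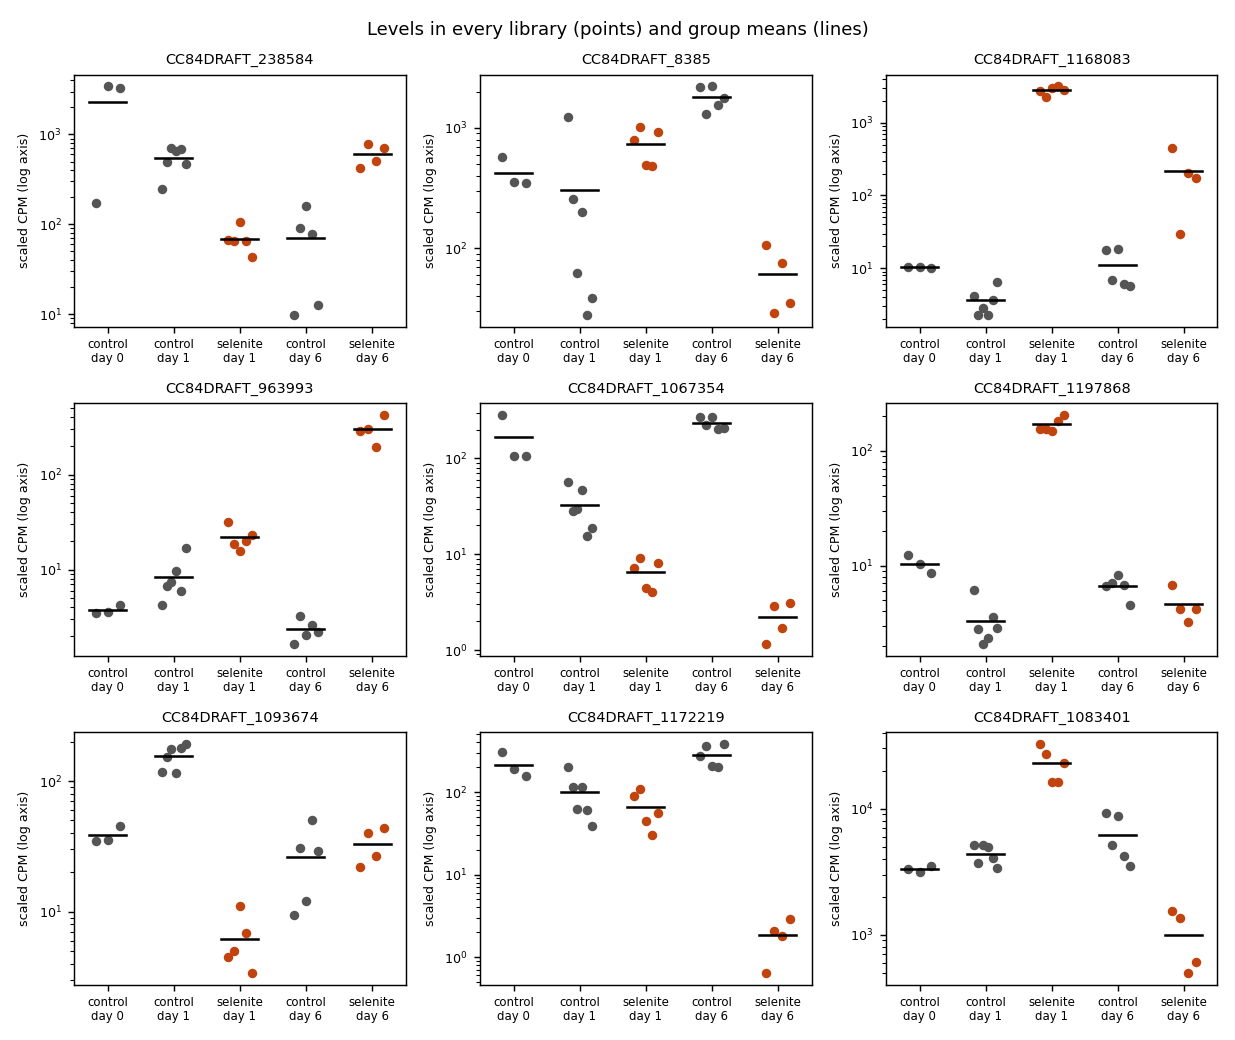
Scaled CPM on a log axis for 9 named genes, with a point for each library, a line for the mean of each group, and selenite libraries in orange. CC84DRAFT_1197868 is high in the 5 selenite libraries of day 1 (149.6 to 205) and low in all other groups, while CC84DRAFT_963993 is highest in the 4 selenite libraries of day 6 (196 to 424).

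Falls on both days were weaker at day 6 for CC84DRAFT_1164530 and CC84DRAFT_180038. CC84DRAFT_1164530 (1 exon, NW_017253364.1, 2330388 to 2332256, minus strand) had 459.7 to 899 scaled CPM in day 1 controls and 7.93 to 18.9 with selenite. Its selenite libraries still had 14.9, 25.5, 15.1 and 19.0 at day 6, and no change between days was called in them (0.68 ± 0.53 log2 units, limma adjusted p 0.306). Controls of day 6 had 20.8, 136, 21.3, 179 and 341, and replicates 1 and 3 were the low ones, overlapping with selenite. The difference was 3.81 ± 0.72 (limma adjusted p 0.000147), and 2.51 without those 2 libraries. CC84DRAFT_180038 (1 exon, NW_017253360.1, 5177110 to 5179049, plus strand) had 0.00 to 2.64 scaled CPM with selenite at day 1 and 4.22, 4.49, 4.41 and 6.66 at day 6. Its controls had 18.0 to 68.6 and 7.97 to 22.6, and the difference was 3.62 ± 0.65 (limma adjusted p 8.12e-05).

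In the genes with a deeper fall at day 6 the controls moved most. CC84DRAFT_1067354 (5 exons, NW_017253364.1, 482782 to 483794, plus strand) went from 15.5 to 57.0 scaled CPM in day 1 controls to 268, 223, 274, 205 and 206 at day 6. Selenite libraries had 4.08 to 9.08 at day 1 and 1.15, 2.91, 1.71 and 3.08 at day 6, and no selenite library reached any control of its day. Its selenite change was −2.15 ± 0.31 and then −6.50 ± 0.35, a difference of −4.35 ± 0.47 (limma adjusted p 1.24e-07). For CC84DRAFT_301216 (3 exons, NW_017253371.1, 295327 to 296393, plus strand) the difference was −4.11 ± 0.57 (limma adjusted p 3.94e-06). Its controls rose by 3.38 ± 0.38 log2 units between days, and its selenite cultures changed by −0.73 ± 0.43, which did not pass (adjusted p 0.167). Day 6 controls of this gene ran from 92.7 to 457, with replicates 1 and 3 highest.

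Early rises with no call at day 6 were largest in CC84DRAFT_1131304 and CC84DRAFT_1197868. CC84DRAFT_1131304 (4 exons, NW_017253374.1, 649153 to 651496, minus strand) had 449, 784, 340.3, 234 and 639 scaled CPM with selenite at day 1, above a median of 3.01 in controls. At day 6 selenite libraries had 24, 30.3, 25.5 and 12.6, overlapping the controls (90.7, 30.2, 73.3, 20.2 and 22.5) with 1 library below them, and the difference was −8.20 ± 0.64 (limma adjusted p 2.06e-09). CC84DRAFT_1197868 (3 exons, NW_017253367.1, 628623 to 629813, plus strand) had 156, 156, 149.6, 181 and 205 with selenite at day 1 and 6.84, 4.16, 3.24 and 4.18 at day 6. Controls had a median of 2.83 at day 1 and 6.65, 7.07, 8.35, 6.85 and 4.52 at day 6. The selenite change went from 5.55 ± 0.24 to −0.51 ± 0.26 (limma adjusted p 0.108 at day 6), and the difference of −6.06 ± 0.35 had an adjusted p of 1.47e-11.

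Early falls with no call at day 6 were led by CC84DRAFT_1093674 and CC84DRAFT_1214920. CC84DRAFT_1093674 (2 exons, NW_017253365.1, 1679655 to 1680299, minus strand) had 115 to 193 scaled CPM in day 1 controls and 4.53, 5.05, 11.1, 6.86 and 3.40 with selenite. At day 6 controls had 9.48, 31, 12.1, 50 and 29, and selenite libraries 22, 40.1, 26.8 and 43.7. The groups were apart at day 1 and overlapped at day 6, with a difference of 5.14 ± 0.49 (limma adjusted p 2.61e-08). CC84DRAFT_1214920 (1 exon, NW_017253362.1, 1603073 to 1603615, plus strand) owed much of its value to 1 library. It had 70.7 scaled CPM in selenite day 6 replicate 1 and 0.0889, 0.0260 and 0.00 in the other 3. Its difference was 4.66 ± 1.33 (limma adjusted p 0.00638) and, without that library, 2.90 ± 0.805 (adjusted p 0.00523). The selenite change at day 6 was 1.09 log2 units with that library and −0.67 without it (limma adjusted p 0.395). Day 1 controls of this gene had 4.42 to 20.1 scaled CPM, day 1 selenite libraries 0.00 to 2.93 and day 6 controls 0.00 to 1.63.

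Changes seen at day 6 but not called at day 1 were upward in CC84DRAFT_1160435 and CC84DRAFT_1132701. CC84DRAFT_1160435 (5 exons, NW_017253361.1, 156749 to 158816, minus strand) had 133, 239, 19.4 and 72.2 scaled CPM with selenite at day 6, and no more than 4.30 in any other library of days 1 and 6. Its difference was 5.64 ± 0.87 (limma adjusted p 1.37e-05), with selenite cultures up by 6.13 ± 0.65 log2 units between days and controls by 0.49 ± 0.58, which did not pass (adjusted p 0.541). CC84DRAFT_1132701 (3 exons, NW_017253360.1, 88821 to 91321, minus strand) had 35.6, 26.9, 37.3 and 29 with selenite at day 6 and 0.693 to 1.54 in the controls. At day 1 it had 3.32 to 7.77 with selenite and 6.44 to 14.4 without, and the difference was 4.90 ± 0.42 (limma adjusted p 7.01e-09).

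The downward ones were CC84DRAFT_1112651 and CC84DRAFT_1172219. CC84DRAFT_1172219, of 6 exons on NW_017253361.1 (1366772 to 1369077, plus strand), had overlapping day 1 groups, at 38.8 to 204 scaled CPM in controls and 29.9 to 109 with selenite. At day 6 controls had 273, 358, 209, 203 and 385, and selenite libraries 0.639, 2.04, 1.82 and 2.92. Its difference was −6.46 ± 0.54 (limma adjusted p 4.65e-09), of which −4.78 ± 0.40 log2 units was change in selenite cultures. CC84DRAFT_1112651, on the same scaffold (3237199 to 3239599), had a difference of −7.03 ± 1.20 (limma adjusted p 4.73e-05). Its day 1 controls ran from 3.16 to 232, with replicate 1 highest, and selenite libraries of the same day from 11.0 to 16.6. Its controls rose between days by 5.43 ± 0.81 log2 units, and its selenite cultures were not called (−1.60 ± 0.89, adjusted p 0.146).

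A positive difference that lay in the controls was that of CC84DRAFT_1177673 (2 exons, NW_017253366.1, 879445 to 881128, minus strand). Selenite libraries had 360.0, 356, 482, 437 and 377 scaled CPM at day 1 and 279, 365, 512 and 773 at day 6, a change of 0.17 ± 0.51 log2 units (limma adjusted p 0.812). Controls went from a median of 1340.5 (559 to 2447) to 24.8, 63.1, 42.1, 73.0 and 32.8, a change of −4.78 ± 0.46. Selenite libraries thus lay below all controls at day 1 and above all of them at day 6, with a difference of 4.94 ± 0.68 (adjusted p 3.41e-06).

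The 3 named genes with the most reads differed between days as follows. CC84DRAFT_1214642 (3 exons, NW_017253362.1, 825524 to 827971, plus strand) had 23279 to 42726 scaled CPM in day 1 controls and 5003, 3158, 2127, 2479 and 3821 in day 1 selenite libraries. At day 6 it had 66.7, 575, 255, 1652 and 1275 in controls and 419, 287, 853 and 1116 with selenite, and the groups overlapped. Day 0 controls had 159.6, 1061 and 1066, so the high level was seen in controls of day 1 and, at a lower level, in selenite libraries of that day. The difference was 3.67 ± 0.92 (limma adjusted p 0.00226), and 2.46 without control day 6 replicates 1 and 3. CC84DRAFT_1223420 (2 exons, NW_017253375.1, 679473 to 680181, minus strand) had 19374, 17862, 8791, 11633 and 11900.5 scaled CPM with selenite at day 1 and 800.4, 680.5, 509 and 662 at day 6. Its controls had 6221 to 8773 at day 1 and 5213 to 14609 at day 6. Groups overlapped at day 1, where selenite was not called against control (limma adjusted p 0.0594), and were apart at day 6. The difference was −4.37 ± 0.53 (adjusted p 6.26e-07). CC84DRAFT_1083401 (3 exons, NW_017253361.1, 870212 to 870690, plus strand) rose at day 1 to 32635, 26895, 16316, 16254 and 22982 against 3372 to 5171 in controls. At day 6 it fell to 1528, 1345, 495 and 602 against 3500.2 to 9189, all 4 selenite libraries below all 5 controls. Its difference was −5.05 ± 0.57 (limma adjusted p 2.62e-07), and its controls did not pass between days (0.40 ± 0.39, adjusted p 0.435).

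Some neighbouring genes differed in the same direction. Taking tested genes in order along the scaffolds, 3098 positive calls formed 1578 runs of 1 (no neighbour with the same call), 460 of 2, 124 of 3 and 51 longer runs, and 2832 negative calls 1484 runs of 1, 382 of 2, 103 of 3 and 63 longer ones. No reference for chance was computed for these numbers, beside shares of 22.7% and 20.7% of all tested genes. The longest runs held 7 genes, 3 of them positive and 1 negative. On NW_017253360.1 (674307 to 688292) the 7 differences were 1.13 to 5.20 log2 units, with all 7 changes below 0 at day 1 (−3.62 to −0.10) and above 0 at day 6 (0.58 to 1.59). The day 1 changes of CC84DRAFT_1182357, CC84DRAFT_1211038 and CC84DRAFT_1080353 were not called, nor was the day 6 change of CC84DRAFT_1182357. In 6 of the 7 genes controls were called lower at day 6. CC84DRAFT_1080175 at the end of this run had the largest difference, 5.20 ± 0.88 (limma adjusted p 4.17e-05).

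On NW_017253367.1 (2082804 to 2101599) a run mixed high and low genes. CC84DRAFT_1220197, CC84DRAFT_1220198 and CC84DRAFT_1189230 rose with selenite at day 1 by 4.31, 3.0 and 4.93 log2 units and at day 6 by 6.465, 5.74 and 7.0. Their selenite means were 879, 538 and 450 scaled CPM at day 1 and 439, 583 and 142 at day 6, while control means fell from 46.3, 71.8 and 15.8 to 6.08, 13 and 0.679. The larger log2 change at day 6 thus went with lower control levels, and controls were called lower in 6 of the 7 genes. CC84DRAFT_1167030, the second gene of the run, had a mean of 13.3 with selenite at day 1 and 63.5 at day 6, a difference of 4.74 ± 0.60 (limma adjusted p 1.12e-06). In the third positive run, on NW_017253364.1 (1655378 to 1677375), selenite cultures were called higher at day 6 in 6 of 7 genes and controls lower in 4. CC84DRAFT_741623 had the largest difference there, 3.33 ± 0.33 (limma adjusted p 4.12e-08). Its change between days was 1.14 log2 units in selenite cultures and −2.19 in controls.

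The negative run lay on NW_017253372.1 (77163 to 94240), with 6 of 7 genes on the minus strand. CC84DRAFT_1190723 at its start had means of 1.47 and 91.2 scaled CPM in controls and selenite cultures at day 1, and 7.96 and 24.4 at day 6, a difference of −4.11 ± 0.39 (limma adjusted p 2.93e-08). The adjacent CC84DRAFT_1168802 had 109.0 and 1032 at day 1 and 177 and 239 at day 6, a difference of −2.85 ± 0.28 (adjusted p 4.55e-08). The directions on single days were mixed within this run: CC84DRAFT_1199541 and CC84DRAFT_326461 were lower with selenite on both days, while 5 genes rose at day 1. Selenite cultures were called lower at day 6 in 6 of the 7 genes and controls higher in 5.

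**Figure D5:**
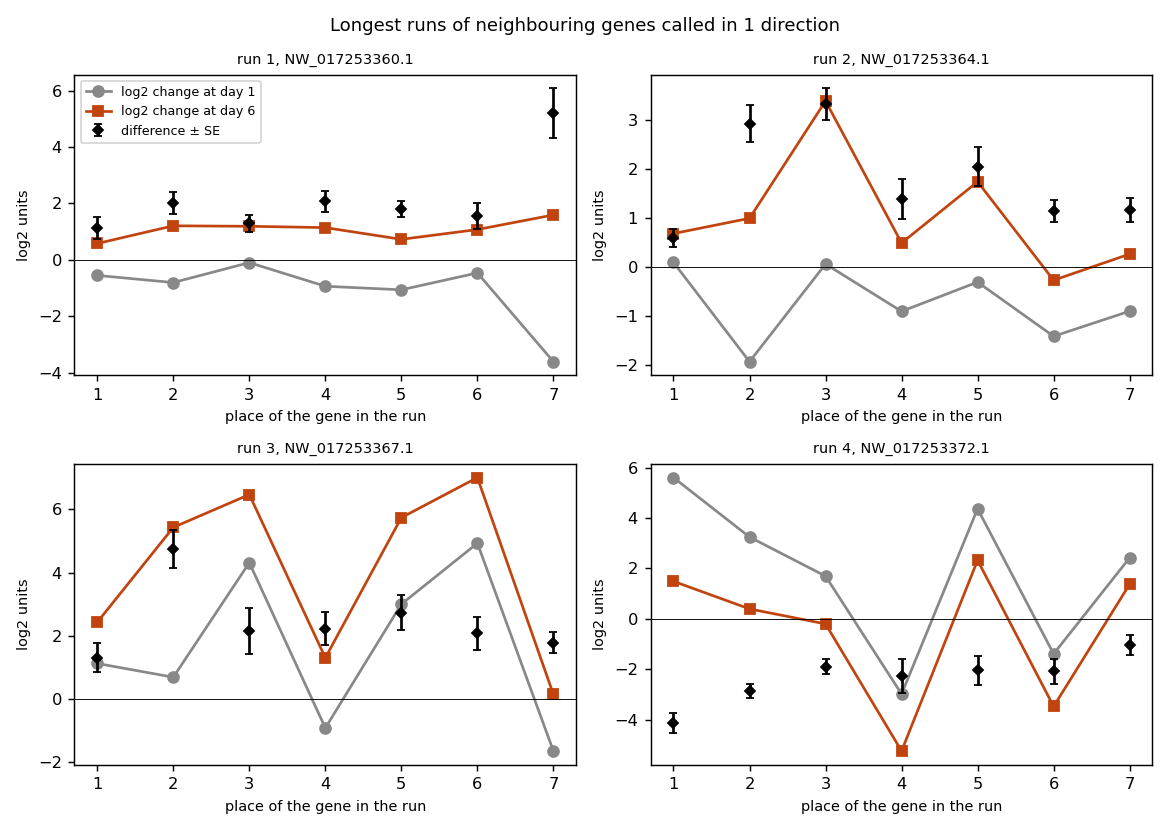
The 4 longest runs of neighbouring tested genes, in gene order, with the log2 selenite change at day 1 (grey) and day 6 (orange) and their difference with its SE (black). Differences are all above 0 in the 3 positive runs (0.59 to 5.20) and all below 0 in the run on NW_017253372.1 (−4.11 to −1.05), although the changes on single days cross 0.

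Genes with positive and negative differences differed in level and gene structure, given here as description. Median levels over the 20 libraries, per kilobase of exon, were 23.2 scaled CPM for positive, 8.69 for negative and 5.35 for genes without a call, against 9.05 for all tested genes. Genes of a single exon made up 19.6% of the positive, 22.7% of the negative and 26.9% of the remaining genes. Positive calls made up 17.5% to 26.9% and negative calls 18.1% to 25% of the tested genes on each of the 17 scaffolds with at least 100 tested genes. Of the 278 tested gene models that the authors added under STRG names, 31 (11.2%) were positive and 62 (22.3%) negative, against 22.9% and 20.7% of the genes with locus tags. The part of the level in these shares was not tested.

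The authors' deposited table of 4611 time-course genes, made with maSigPro and sorted there into 9 clusters, was set beside the differences. It was made from the same libraries and is no independent evidence. It held 48.2% of the genes called here and 22.7% of those not called. In its cluster 7, 400 of 410 genes had a positive difference and none a negative one, with median log2 changes of −1.63 at day 1 and 0.36 at day 6. Its cluster 4 had 457 positive differences among 599 genes, and there the selenite cultures had a median change between days of 0.07 and the controls one of −1.43 log2 units. Cluster 5 had 504 negative differences among 681 genes, with medians of −1.50 in selenite cultures and −0.15 in controls. In cluster 7 these medians were 1.56 and −0.37. In the authors' deposited tables for the single days, the fold change at day 6 minus that at day 1 had the same sign as here for 5522 of the 5539 called genes present in both. Those tables rest on the same libraries, and the genes were chosen by their difference here, so this sign count tests nothing.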

How the data were processed

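RNA sequencing reads per gene came from 23 libraries grouped by sample titles. The submitters' processing notes name STAR 2.7.1a, Trimmomatic 0.39, edgeR 3.36.0 under R 4.1.0, and Subread 2.0.6 with featureCounts. The sources used here give no build. The authors deposited CPM, which per the file headers and values are scaled to all reads in genes. All 348772 values were whole reads within 1e-06 at totals of 23282564 to 32681888, so 1 read was worth 0.0306 to 0.0430 CPM. Per the file headers, counting used strand and took paired reads singly, so counting error understates true error. The count table gave positions, from 1, and lengths; its numbers were not used. The authors' deposited tables hold log2 fold changes, mean log2 CPM, F scores, p-values and, from maSigPro, a cluster number per gene.

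The edgeR 4.0.16 function filterByExpr (minimum count 10, minimum total 15) kept 13676 genes and left out 1488. TMM-scaled CPM plus 0.5, on the log2 scale, were fitted with limma 3.58.1 (R 4.3.3) with a variance trend, 5 group means and no block, two-sided, adjusted by Benjamini-Hochberg. The added 0.5 understates changes of low genes. Errors are SE of the fit, and levels of single libraries are scaled CPM. The fit was tested on simulated data where few genes changed, in the day 6 selenite group only. The scaling between days was not tried there. Of the locus tags, 14839 matched the RefSeq table of assembly Parsp1, in which each symbol is the locus tag, so planned gene lists by product name and promoter motifs were not run, and sequences were not used here. Members, lists and tests were chosen with earlier results of these data known.

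Named genes had an adjusted p under 0.05 in all 20 fits that leave out a library of days 1 or 6 and a group mean of at least 10 scaled CPM (3880 of 5930 genes). From these were taken the 2 largest differences in each of 10 patterns, the largest of each sign where only selenite cultures or only controls were called between days, the 3 with the highest mean CPM, and the longest runs of neighbours; genes of those runs singled out in the text were picked after their values were seen. Replicate numbers did not pair the libraries. Alternatives are listed in the closing section.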

Additional observations from a re-analysis of the deposited data

Results flagged for a closer look

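The selenite change of each of the 24 named genes differed between day 6 and day 1 by the test of the difference itself (limma adjusted p, in the report). Passing that test was a condition for being named, so this adds no support. Positive differences, in log2 units, were 6.70 for CC84DRAFT_238584, 6.20 for CC84DRAFT_1219326, 5.64 for CC84DRAFT_1160435, 5.29 for CC84DRAFT_963993 and 5.28 for CC84DRAFT_1167530. They were 5.14 for CC84DRAFT_1093674, 4.94 for CC84DRAFT_1177673, 4.90 for CC84DRAFT_1132701 and 4.66 for CC84DRAFT_1214920. The remaining positive ones were 3.81 for CC84DRAFT_1164530, 3.67 for CC84DRAFT_1214642 and 3.62 for CC84DRAFT_180038. Negative differences were −10.3 for CC84DRAFT_1138657, −8.20 for CC84DRAFT_1131304, −7.51 for CC84DRAFT_8385, −7.03 for CC84DRAFT_1112651 and −6.46 for CC84DRAFT_1172219. They were −6.06 for CC84DRAFT_1197868, −5.93 for CC84DRAFT_1231262, −5.59 for CC84DRAFT_1168083 and −5.05 for CC84DRAFT_1083401. The smallest negative ones were −4.37 for CC84DRAFT_1223420, −4.35 for CC84DRAFT_1067354 and −4.11 for CC84DRAFT_301216.

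Of 96 sets of library values (24 genes in 4 groups), 2 held a library far from the rest by Dixon's test, which chance gives in about 1 of 20. Selenite day 6 replicate 4 had 6.66 scaled CPM of CC84DRAFT_180038 and the other 3 had 4.22 to 4.49. Selenite day 6 replicate 1 had 70.7 scaled CPM of CC84DRAFT_1214920 and the other 3 no more than 0.0889. Such a count depends on the scale of the values. Control day 1 replicate 1 was not counted, though it had 1233 scaled CPM of CC84DRAFT_8385 against 27.6 to 255 in the other day 1 controls. It had 232 of CC84DRAFT_1112651 against 3.16 to 53.1, and 62.3 of CC84DRAFT_301216 against 11.3 to 24.6.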

How the results depend on the processing

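The 24 named differences kept their sign and an adjusted p under 0.05 in all alternatives run. For the 20 fits that leave out a library this was a condition for being named, so those fits test nothing here. The number of genes called ran from 5285 to 6301 with each of the 20 libraries left out in turn, and opposite calls from 615 to 986. The count was 5877 with DESeq2 size factors, 5686 with library totals alone, 5524 and 6237 with pseudocounts of 0.1 and 2, 5910 without a filter and 5580 with a mean CPM of at least 1. It was 4986 by edgeR, 5332 by DESeq2 and 5180 by limma-voom on the recovered reads. With only the 20 libraries of days 1 and 6 it was 5754. There the tested genes and TMM factors were set anew, the median shift was −0.157 log2 units, and 45.3% were positive. With all libraries 52.2% were positive, and the cause was not tested. The test against a 1.5-fold change, stricter by construction, called 3079 differences (1593 positive, 1486 negative), 5318 genes at day 1, 3189 at day 6, 2748 between days in selenite cultures, 2181 in controls, and 97 opposite calls. Without control day 6 replicates 1 and 3, 463 opposite calls were found in place of 818; the cause was not tested. With the replicate block, 5913 differences were called; the numbers do not pair libraries, since correlations of same-numbered libraries ran from −0.131 to 0.403 and 4 of 20 libraries correlated best with their own number. Genes with few reads are limited by depth, as 3 reads were worth 0.0918 to 0.129 CPM.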
